A study of Mus musculus with 6 samples.

Results

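The Zfp genes numbered 400 to 999 were followed in cultured neural stem cells of control mice and of mice with a conditional knockout of Phf2. The members were all rows of the deposited count table whose symbol is Zfp followed by a number from 400 to 999, with 1 gene left out. The rule used names alone and no measured value, and it gave 205 of the 24503 gene symbols. Primary neural stem cells had been taken from the embryonic cortex at E13.5, enriched by growing them as neurospheres, and then expanded with FGF and EGF on a laminin coat. The control group (WT, 3 libraries) was Phf2 flox/flox, and the knockout group (KO, 3 libraries) was Phf2 flox/flox with a Nestin-Cre transgene. Both groups thus carried the floxed alleles, and Cre was present in KO alone, so Cre itself and the loss of Phf2 cannot be told apart. Nestin regulatory sequence drives Cre in neural progenitors. Which exons the loxP sites flank is not given in the labels.

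Zfp is the mouse symbol for a zinc finger protein. Most such proteins bind DNA through tandem C2H2 fingers, in which a pair of cysteines and a pair of histidines hold a zinc ion. Many also carry a KRAB box, which recruits Trim28 and, through it, the H3K9 methyltransferase Setdb1, heterochromatin proteins and DNA methylation to retroelements and imprinted regions. KRAB genes arose by repeated duplication and stand in clusters on the chromosomes. Zinc finger proteins without a KRAB box have mixed tasks that include control of neural development, chromatin complexes and ribosome quality control. Phf2 encodes a Jumonji-family histone demethylase with a PHD finger, described for methylated H3K9.

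Total counts ranged from 33413444 to 46890314 per library. Phf2 had 108.6, 90.4 and 77.8 CPM (counts scaled to library size, with TMM factors) in WT 1, 2 and 3 and 56.3, 48.1 and 48.8 CPM in KO 1, 2 and 3, lower in every KO library and still well above 0. Its log2 fold change was −0.84 ± 0.0743 with the replicate number as a block (edgeR, adjusted p = 0.000123, and 0.182 without the block). The libraries numbered 1 stood apart from those numbered 2 and 3 in both groups: 57.6% of the 13683 genes tested differed between them. The labels name no batch for that number. Of the pairs within a group, KO 2 and KO 3 were the closest, with a median chi-square per gene of 1.02 against 5.25 for WT 2 and WT 3. Neural stem cell markers summed to 9247 to 10500 CPM in WT and 9165 to 10300 CPM in KO. Neuronal markers, most of it Map2, summed to 546.3 to 765.2 and 634.6 to 764.9 CPM. Oligodendrocyte lineage markers, most of it Olig2, summed to 1343 to 1373 and 1298 to 1386 CPM. Microglial, endothelial, mesenchymal and erythroid markers each summed to at most 2.28 CPM in every library, with Ptprc, Aif1, Cdh5 and Hbb-bs at 0; of these, Twist1 alone was called by genotype (higher in KO, at most 0.754 CPM). Astrocyte markers (Gfap, Aqp4, Aldh1l1, Slc1a2) summed to 159 to 403 CPM in WT and 59.5 to 151 CPM in KO. Single markers of the other lists moved: in the blocked edgeR fit Sox10 (log2 fold change −0.92, adjusted p = 0.00119) and Syt1 (−0.93, adjusted p = 0.000112) were lower in KO, and Pdgfra (0.56, adjusted p = 0.000829) and Hes5 (0.32, adjusted p = 0.0161) higher.

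Of the 205 members, 189 had enough counts to be tested and 4 had 0 counts in every library. The 16 untested members were Zfp459, Zfp474, Zfp534, Zfp541, Zfp572, Zfp600, Zfp616, Zfp648, Zfp663, Zfp735, Zfp750, Zfp819, Zfp831, Zfp872, Zfp936 and Zfp957. All 205 matched a GENCODE gene: 116 encoded a protein that passed a search for the KRAB box and 86 a protein that did not. The other 3 (Zfp572, Zfp783, Zfp939) were annotated as pseudogenes. The search asked for 18 of 41 consensus residues, so a divergent box is counted as absent. Zfp641, Zfp446 and Zfp746 came near the limit with 16, 15 and 14. Below, with and without a KRAB box refer to this search. KRAB proteins had a median of 12 C2H2 fingers and those without the box a median of 7; the largest number was 33. The KRAB genes were the weaker expressed class. Per kb of exon, their tested members had a median level of 2.09 CPM, against 5.74 CPM for members without a KRAB box and 6.15 CPM for all genes tested. Together the 205 genes took 4650, 4722 and 4377 CPM in WT 1, 2 and 3, and 4790, 4893 and 4958 CPM in KO 1, 2 and 3. The KO sums were all above the WT sums, with means of 4880 ± 84.8 and 4583 ± 182 CPM (SD, n = 3 each), or 0.488% and 0.458% of the total. With upper-quartile scaling the sums overlapped, at 4562, 4822 and 4505 CPM in WT 1, 2 and 3 against 4651, 4877 and 4966 CPM in KO 1, 2 and 3.

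The comparison of KO with WT asks how far the transcript levels of these genes differ between groups that differ in both Phf2 and Cre. Few of them passed the test. By the quasi-likelihood test of edgeR, with p adjusted by Benjamini-Hochberg over all genes, 0 of the 189 tested members were called at an adjusted p of 0.05, while 0.0585% of all genes tested were. At an unadjusted p of 0.05, 6 members passed, while 5.81% of all genes did, and DESeq2 called 2 members (Zfp429, Zfp503) and 1.91% of all genes. WT and KO libraries carry the same replicate numbers, and with that number as a block edgeR called 9 members, 4 higher and 5 lower in KO. That is 4.76% of the tested members, against a background of 9.79% of all genes tested (3.33% higher, 6.46% lower). At an unadjusted p of 0.05, 25 members passed with the block, where 23.7% of all genes did. DESeq2 with the block called 8 members (9.27% of all genes), edgeR on numbers 2 and 3 alone 3 (5.4%), and edgeR with KO 2 and KO 3 summed and number 1 as the block 3 (4.94%). The 3 called in numbers 2 and 3 alone were Zfp429, Zfp503 and Zfp808, and the 3 called with the summed library were Zfp429, Zfp503 and Zfp536. The blocked fit called 8 members with upper-quartile scaling (9.57% of all genes), 10 without a filter on low counts (9.5%) and 9 with number 1 against the rest as the block (10.6%). Without both libraries of number 1, 2 or 3 it called 4, 9 and 8 members, where 7.53%, 9.07% and 10.6% of all genes were called. In the blocked edgeR fit, the higher ones were Zfp503, Zfp532, Zfp770 and Zfp808, and the lower ones Zfp429, Zfp536, Zfp709, Zfp783 and Zfp941. Of these, Zfp429, Zfp503 and Zfp783 were also called by the blocked fit without both libraries of any 1 number, and the other 6 lost the call without at least 1 number. The astrocyte marker sum moved in the same comparison, with 3 of its 4 genes called lower, as were 1 of 5 tested neuronal and 1 of 5 oligodendrocyte markers, another of which was called higher; the part of these markers in the calls was not tested. In bulk RNA, fewer cells of a type and less RNA per cell cannot be told apart.

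**Figure D1:**
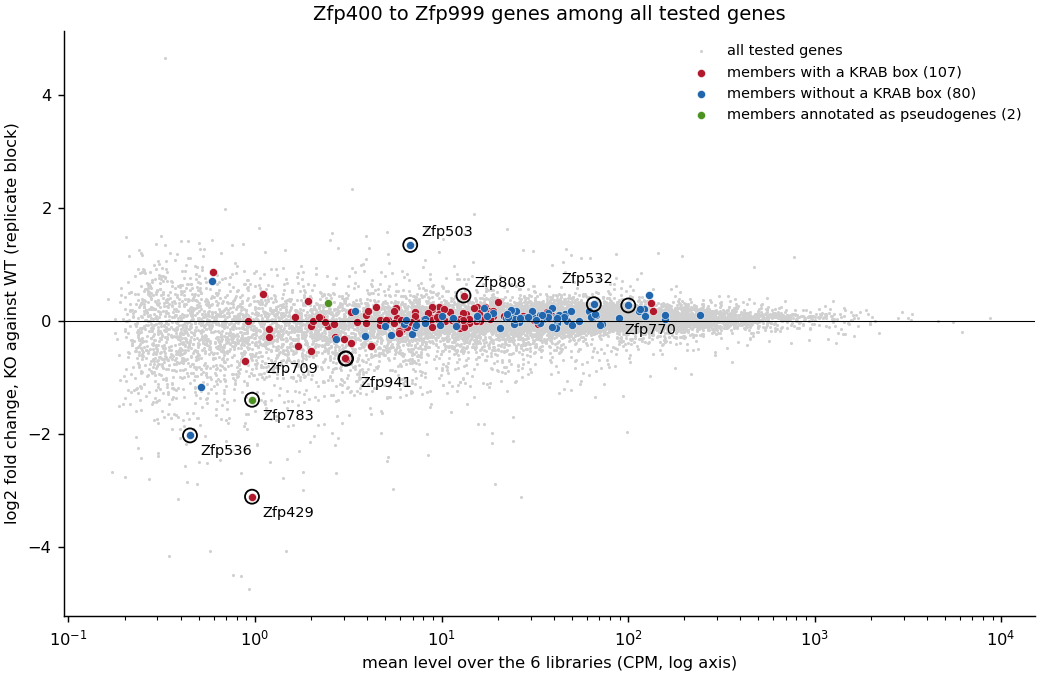
Each point is a gene, with its mean level over the 6 libraries (CPM, log axis) across and its log2 fold change, KO against WT, in the blocked edgeR fit upward. Grey points are all tested genes, coloured points the 189 tested members by class, and rings mark the 9 called members; most members lie within 0.25 of 0 and Zfp429 lies lowest, at −3.12.

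Most of the remaining members lay close to their WT level. With the block, 161 of the 189 (85.2%) had a log2 fold change within 0.25 of 0, against 75.3% of all genes tested. The 10th and 90th percentiles of the members' log2 fold changes were −0.19 and 0.22, and those of all genes −0.41 and 0.24. The members' median was 0.05 without the block and 0.04 with it, against 0.01 for all genes in both. KO libraries lay wholly above WT libraries for 13 tested members and wholly below for 8, while 11.2% of all genes had groups that did not overlap (4.49% above, 6.71% below). That split depends on the scaling: with upper-quartile scaling it was 6 above and 12 below, where 3.49% and 7.68% of all genes were. In numbers 2 and 3 alone, with 2 libraries a group, 66 members lay above and 24 below, where 26.9% and 25.7% of all genes did. With the block, KRAB members had 1 gene called higher and 3 lower of 107 tested (3.74%). Members without the box had 3 higher and 1 lower of 80 (5%), where 9.79% of all genes tested were called. The median log2 fold changes of the 2 classes were 0.03 and 0.05. The pseudogene Zfp783 was the ninth. Calls were uneven over the range of levels. Below 2 CPM, 3 of 15 members were called, where 8.02% of all genes were, while between 5 and 10 CPM 1 of 39 was called, where 14.9% of all genes were.

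Zfp429, a KRAB gene with 10 fingers, had the largest change. It lies on the minus strand of chromosome 13 (GRCm38, 67387905 to 67399819) in a row of 14 member genes that spans 753.9 kb and in which every gene encodes a KRAB box. WT 1, 2 and 3 held 89, 54 and 91 counts and KO 1, 2 and 3 held 10, 8 and 5. The groups did not overlap, and the highest KO library held 10 counts where the lowest WT library held 54. In CPM, the WT level was 1.73 ± 0.342 and the KO level 0.194 ± 0.0475 (SD, n = 3 each). In the blocked fit it was 8.68-fold lower in KO, a log2 fold change of −3.12 ± 0.31 (SE), with an edgeR adjusted p of 0.000231 against 0.0782 without the block. A neighbour with a similar upstream sequence (92.2% of aligned bases the same), Zfp456, starts 25.8 kb away. It had 2.23 CPM in WT and 2.26 CPM in KO, a log2 fold change of 0.05 ± 0.20 (blocked edgeR, adjusted p = 0.92). Of the longest transcript of Zfp429, 7.5% is shared with Zfp456, so a small share of reads could be assigned to either. Of the longest transcript of Zfp456, 56.6% is shared with Gm17039 or Gm28041, so its count is uncertain.

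The upstream sequences of Zfp429, of its neighbours Zfp456 and Zfp459 and of Zfp503, the gene that rose most, are printed to show the stretch before the outermost annotated start of each. They are from RefSeq, build GRCm38.p6, minus strand, written 5′ to 3′, with each CG dinucleotide in capitals.
Zfp429 (chr13:67399820-67400017): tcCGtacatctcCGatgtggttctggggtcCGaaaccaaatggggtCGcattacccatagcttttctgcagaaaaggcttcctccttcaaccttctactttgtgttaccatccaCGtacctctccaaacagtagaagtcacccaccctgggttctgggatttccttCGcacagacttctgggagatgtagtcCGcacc
Zfp456 (chr13:67375811-67376013): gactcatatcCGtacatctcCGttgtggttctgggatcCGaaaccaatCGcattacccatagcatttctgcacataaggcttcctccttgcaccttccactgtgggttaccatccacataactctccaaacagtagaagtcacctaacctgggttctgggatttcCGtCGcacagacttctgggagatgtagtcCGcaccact
Zfp459 (chr13:67421419-67421668): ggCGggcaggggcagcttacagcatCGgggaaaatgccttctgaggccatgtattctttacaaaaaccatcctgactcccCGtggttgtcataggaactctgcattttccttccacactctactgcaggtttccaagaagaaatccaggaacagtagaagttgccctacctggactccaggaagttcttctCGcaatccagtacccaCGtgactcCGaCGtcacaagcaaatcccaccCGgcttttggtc
Zfp503 (chr14:21989602-21989851): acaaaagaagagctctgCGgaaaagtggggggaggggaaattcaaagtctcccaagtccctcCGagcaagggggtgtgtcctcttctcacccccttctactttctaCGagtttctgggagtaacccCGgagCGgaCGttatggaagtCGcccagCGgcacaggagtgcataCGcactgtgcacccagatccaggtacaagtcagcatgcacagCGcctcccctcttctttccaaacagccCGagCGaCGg
Zfp429 and Zfp456 shared 177 of 192 aligned bases (92.2%), and both held 7 CG in the stretch shown. Zfp429 and Zfp459 shared 73.6% of their aligned bases, about the 73.5% of Zfp429 and the unrelated Zfp503. The stretch before Zfp503 held 13 CG. Over the whole window of 250 bases, 59.7% of the 32851 mouse promoter windows held at most the 8 CG of Zfp429, and 70.6% held at most the 13 of Zfp503. CG reads the same on both strands, and these counts are a description of the letters only.

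Most genes on either side of Zfp429 showed small differences. Of the 13 tested genes of the row, Zfp429 was the 1 that was called with the block (7.69%), where 11.3% of the 497 genes tested on chromosome 13 were called. Zfp595, Zfp953, Zfp748 and Zfp738 had log2 fold changes of −0.01, 0.06, −0.01 and −0.13. Zfp493 had 2.39 CPM in WT and 1.6 CPM in KO, with overlap, a log2 fold change of −0.54 ± 0.192 and an adjusted p of 0.117 in the blocked edgeR fit. Zfp458 had 1.95 CPM in WT and 1.44 CPM in KO without overlap, and Zfp457 had 0.426 and 0.771 CPM with overlap; neither passed the blocked edgeR test (adjusted p = 0.215 and 0.225). Zfp459, Zfp874a, 9430065F17Rik, 4930525G20Rik, Zfp729b and Zfp85 were singled out after their values were seen. Zfp459, which starts 17.8 kb from Zfp429, had 4, 4 and 4 counts in WT and 0, 0 and 1 in KO, too few to test. Zfp874a, no member, starts 36.6 kb away and had 7.93 CPM in WT and 4.86 CPM in KO, with overlap (log2 fold change −0.70 ± 0.127, edgeR adjusted p of 0.0072 with the block and 0.73 without it). Farther out, 9430065F17Rik had 2, 5 and 7 counts in WT 1, 2 and 3 and 0 in each KO library. 4930525G20Rik had 8, 5 and 7 counts in WT and 1 in each KO library, and both genes were too low to test. Zfp729b and Zfp85 had groups apart the other way, KO above WT, and were not called (blocked edgeR, adjusted p = 0.25 and 0.28). Phf2 is on the same chromosome, 18.5 Mb from Zfp429. Zfp808, on the same chromosome 13.3 Mb from Phf2, changed the other way.

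**Figure D2:**
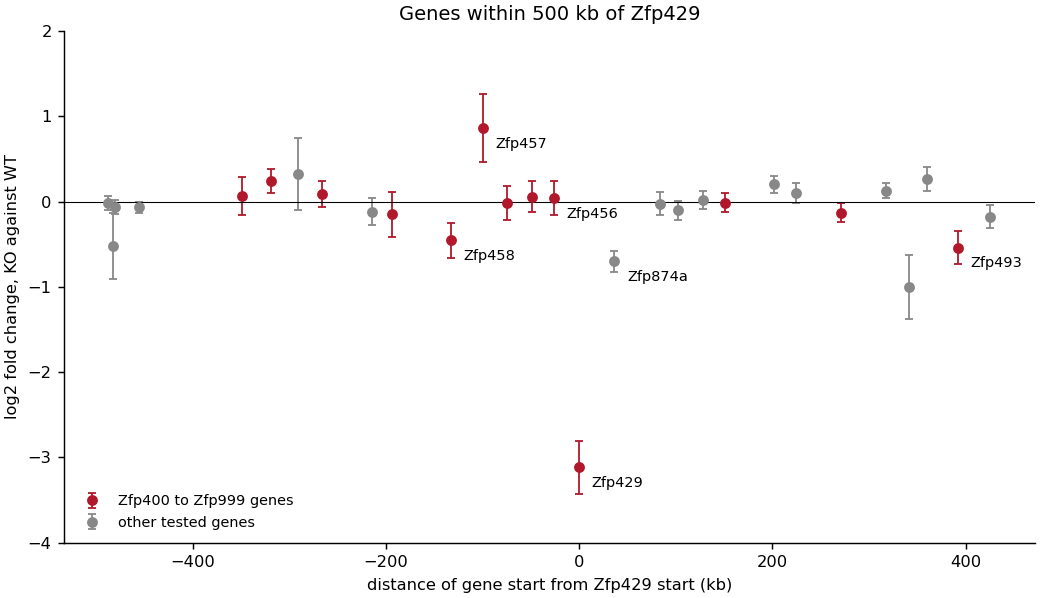
Log2 fold change, KO against WT, in the blocked edgeR fit (bars, SE) of each tested gene within 500 kb of Zfp429, by the distance of its start from the start of Zfp429 in kb. Red points are Zfp400 to Zfp999 genes and grey points other genes; Zfp429 lies at −3.12, Zfp874a at −0.70 and Zfp456 at 0.05.

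Zfp503, also named Nolz1, is a transcriptional repressor of striatal and hindbrain development, and it rose most among the members. WT 1, 2 and 3 held 212, 123 and 185 counts and KO 1, 2 and 3 held 410, 437 and 300. All KO libraries lay above all WT libraries. The level went from 3.86 ± 0.782 to 9.73 ± 0.723 CPM (SD, n = 3 each), a 2.53-fold difference. The log2 fold change was 1.34 ± 0.146 (SE), with an edgeR adjusted p of 0.000409 with the block and 0.132 without it. It lies on chromosome 14 (GRCm38, 21983959 to 21989601, minus strand), and its protein held no match to the C2H2 pattern searched. Its close relative Zfp703 went from 73.1 ± 12.7 to 68.7 ± 7.95 CPM, with overlap, and did not pass (log2 fold change −0.08 ± 0.0676, blocked edgeR, adjusted p = 0.519).

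Zfp536, a repressor of neuronal differentiation, was low in WT and lower in KO. WT 1, 2 and 3 held 54, 23 and 19 counts and KO 1, 2 and 3 held 14, 1 and 6. The groups did not overlap, and in each the library numbered 1 was highest. In CPM, the WT level was 0.716 ± 0.406 and the KO level 0.181 ± 0.159 (SD, n = 3 each). The log2 fold change was −2.03 ± 0.483, with an edgeR adjusted p of 0.0269 with the block, 0.85 without it, and 0.0725 with the block and without both libraries numbered 1.

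Zfp503 and Zfp536 were 2 of the 10 developmental regulators listed, 1 called higher and 1 lower (20%, where 9.79% of all genes tested were called with the block). The other 8 did not pass. Zfp423, a cofactor in cerebellar and olfactory development, was measured at 24.5, 52.4 and 50.5 CPM in WT 1, 2 and 3 and at 23.4, 50.6 and 49.4 CPM in KO 1, 2 and 3. Within each number the 2 genotypes of Zfp423 were nearly equal, and the libraries numbered 1 were low in both. Zfp521, which promotes entry into the neural lineage, had 46.7 ± 1.94 CPM in WT and 52.4 ± 4.63 CPM in KO (log2 fold change 0.16 ± 0.0774, blocked edgeR, adjusted p = 0.239). Zfp488, an oligodendrocyte differentiation factor, had 30.4 ± 5.46 and 31.5 ± 3.06 CPM. Zfp462 and Zfp609, both tied to neurodevelopment, had log2 fold changes of 0.20 ± 0.10 and 0.21 ± 0.0893, Zfp516, a brown fat regulator, 0.16 ± 0.0825, and Zfp608 0.09 ± 0.0904.

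**Figure D3:**
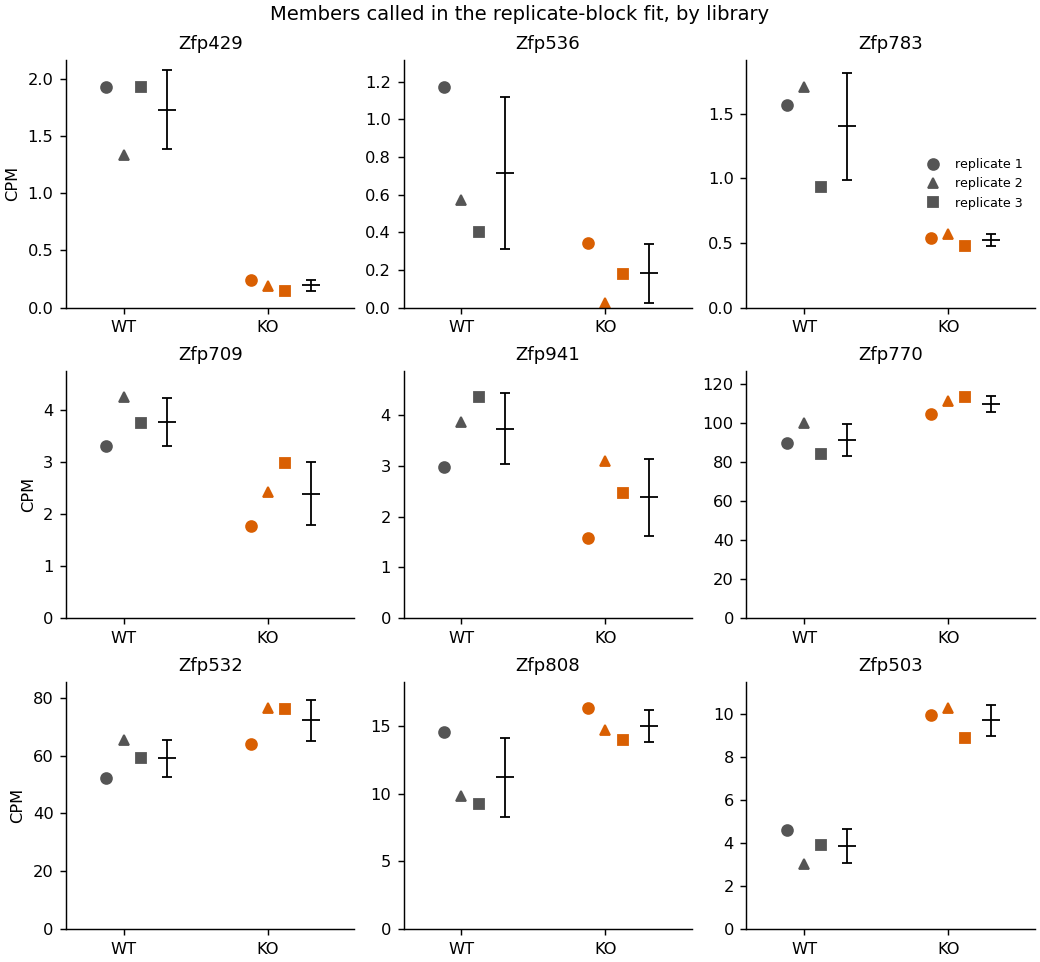
CPM in each library (points, shaped by replicate number) with the group mean and SD beside them, for the 9 members called with the block, ordered from the lowest to the highest log2 fold change. The vertical axes start at 0; in TMM-scaled CPM the groups are apart in Zfp429, Zfp536, Zfp783, Zfp709, Zfp770 and Zfp503 and overlap in Zfp941, Zfp532 and Zfp808.

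Zfp783, annotated as a pseudogene on chromosome 6, fell. WT 1, 2 and 3 held 72, 69 and 44 counts and KO 1, 2 and 3 held 22, 24 and 16, each KO library below all WT libraries. The level went from 1.40 ± 0.414 to 0.526 ± 0.0458 CPM (SD, n = 3 each), with a log2 fold change of −1.40 ± 0.268 and an edgeR adjusted p of 0.00913 with the block and 0.314 without it. The call was lost in numbers 2 and 3 alone (edgeR adjusted p = 0.128) and with KO 2 and KO 3 summed (0.0505). The other 6 genes of its row on chromosome 6 (47819266 to 48623227), Zfp786, Zfp956, Zfp777, Zfp746, Zfp467 and Zfp775, did not pass with the block.

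The KRAB genes Zfp709, with 18 fingers, and Zfp941, with 10, fell by smaller amounts. Zfp709 had 152, 171 and 177 counts in WT 1, 2 and 3 against 73, 103 and 100 in KO 1, 2 and 3, without overlap. Zfp941 had 137, 156 and 205 counts in WT and 65, 131 and 83 in KO, and KO 2 was above WT 1 in CPM. Both had a log2 fold change of −0.67, with SEs of 0.168 for Zfp709 and 0.171 for Zfp941. The edgeR adjusted p with the block was 0.0331 for Zfp709 and 0.0358 for Zfp941, and without the block 0.797 and 0.979. Without both libraries numbered 1 the blocked values were 0.118 and 0.116. The call was also lost for Zfp709 without number 2 (blocked edgeR, adjusted p = 0.0899) and for Zfp941 without number 3 (0.122).

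Zfp808, the KRAB gene that rose, has 22 fingers and 18.3% of its longest transcript is shared with Zfp934 or Platr25. It had 14.5, 9.82 and 9.26 CPM in WT 1, 2 and 3 and 16.4, 14.7 and 14.0 CPM in KO 1, 2 and 3. The groups overlapped, since WT 1 was above KO 3, but KO was above WT in each same-numbered pair. The log2 fold change was 0.44 ± 0.112, with an edgeR adjusted p of 0.0335 with the block and 0.999 without it, and with the block it was 0.107 without both libraries numbered 2 and 0.0903 without those numbered 3. Zfp770, a member without a KRAB box on chromosome 2, had 89.7, 99.7 and 83.9 CPM in WT and 104.7, 111.0 and 113.0 CPM in KO, without overlap. Its log2 fold change was 0.27 ± 0.0713, with an edgeR adjusted p of 0.0419 with the block, and 0.773 without it; with the block it was 0.128 without number 1 and 0.0567 without number 3. Under upper-quartile scaling the Zfp770 groups overlapped.

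Zfp532 was the 1 gene called among the 10 tested chromatin and transcription cofactors (10%, where 9.79% of all genes tested were called with the block). It forms a complex with Zfp592, Zfp687 and the chromatin reader Zmynd8. Its level was 52.3, 65.4 and 59.3 CPM in WT 1, 2 and 3 and 63.9, 76.4 and 76.1 CPM in KO 1, 2 and 3. KO was higher in each pair, while KO 1 was below WT 2. The log2 fold change was 0.29 ± 0.066, with an edgeR adjusted p of 0.0214 with the block, 0.93 without it, and 0.122 with the block and without both libraries numbered 1. Other gene models share 37.9% of its longest transcript, so its count is uncertain. Its partners Zfp592 and Zfp687 had log2 fold changes of 0.11 ± 0.0866 and 0.04 ± 0.0627 and did not pass.

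None of the other tested cofactors passed. Zfp618, which binds Uhrf2, had 37, 32 and 25 counts in WT 1, 2 and 3 against 22, 9 and 7 in KO 1, 2 and 3, with overlap in CPM (log2 fold change −1.18 ± 0.373, blocked edgeR, adjusted p = 0.0783). Zfp711, a partner of the related demethylase Phf8, had 3.05 ± 0.681 CPM in WT and 2.41 ± 0.239 CPM in KO (adjusted p = 0.261 in the same fit). Zfp451, a SUMO ligase, had a log2 fold change of 0.22 ± 0.0863. Zfp827, which recruits the NuRD complex, had −0.11 ± 0.0802, and Zfp638, a partner of the HUSH silencing complex, 0.09 ± 0.0637. Zfp746, a repressor of Ppargc1a, had 0.04 ± 0.0699 and Zfp410, an activator of Chd4, −0.01 ± 0.0709. Zfp541, a meiotic factor, had 0, 3 and 2 counts in WT and 0 in each KO library.

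None of the 5 genes of RNA processing, ribosome and translation passed edgeR or DESeq2 with the block, where 9.79% and 9.27% of all genes did. Where 23.7% of all genes had an unadjusted p under 0.05 in blocked edgeR, 1 of these 5 did. That was Zfp473, a histone pre-mRNA processing factor, with 16, 22 and 21 counts in WT 1, 2 and 3 against 25, 36 and 24 in KO 1, 2 and 3, without overlap in CPM (log2 fold change 0.70 ± 0.304, blocked edgeR, adjusted p = 0.197). Zfp598, a ubiquitin ligase that senses collided ribosomes, had 63.7 ± 8.77 CPM in WT and 66.6 ± 11.2 CPM in KO. Zfp622, which acts in maturation of the large ribosomal subunit, had 34.7 ± 3.48 and 35.2 ± 2.05 CPM, and the splicing-linked Zfp830 had 21.5 ± 3.99 and 23.2 ± 2.17 CPM. Zfp593, a ribosome biogenesis factor, had 15.1 ± 4.61 and 15.8 ± 5.67 CPM, but 72% of its longest transcript is shared with E130218I03Rik and its count is uncertain.

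KRAB repressors with known targets were not called either. Of 6 listed, 5 were tested and 0 passed edgeR or DESeq2 with the block, where 9.79% and 9.27% of all genes did. In blocked edgeR 1 had an unadjusted p under 0.05, where 23.7% of all genes did. Zfp445, which guards imprinted methylation, had 126.8, 144.0 and 111.3 CPM in WT 1, 2 and 3 and 138.2, 141.8 and 150.8 CPM in KO 1, 2 and 3, with overlap (log2 fold change 0.18 ± 0.0852, blocked edgeR, adjusted p = 0.238). Zfp568, the repressor of the placental Igf2 transcript, had 26.4, 15.6 and 12 CPM in WT and 29.0, 18.4 and 18.6 CPM in KO (0.32 ± 0.104, adjusted p = 0.082 in the same fit). In both groups the library numbered 1 was the highest for Zfp568. Zfp809, which silences murine leukaemia virus, had 9.31 ± 1.84 and 8.56 ± 1.20 CPM, and Zfp932, which binds endogenous retroviruses, 33.6 ± 4.50 and 32.3 ± 5.17 CPM. Zfp708, which silences a retroelement family, went from 4.11 ± 0.987 to 4.80 ± 0.299 CPM. Its whole longest transcript is shared with other genes, among them Gm28557 and Rslcan18. Zfp819 had 5, 5 and 1 counts in WT and 3, 8 and 4 in KO and was not tested.

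Of the list made for the KRAB corepressor machinery, 17 genes were found, none of them members. With the block 2 were called higher and 0 lower (11.8%, where 9.79% of all genes tested were called). The 2 were Zfp57 and Uhrf1. Zfp57, an imprinting regulator, is itself a zinc finger gene and is counted again under Zfp1 to Zfp399. It had 15.6 ± 1.57 and 22.3 ± 6.30 CPM (log2 fold change 0.48 ± 0.112, edgeR adjusted p of 0.0257 with the block and 0.947 without it). Uhrf1 is a partner of Dnmt1 (0.36 ± 0.0747, edgeR adjusted p of 0.0142 and 0.999). The WT and KO libraries overlapped for both genes, and both lost the call with KO 2 and KO 3 summed (edgeR adjusted p = 0.105 for Zfp57 and 0.0831 for Uhrf1). Trim28 itself had 463 ± 89.4 CPM in WT and 489 ± 80.6 CPM in KO and did not pass.

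**Figure D4:**
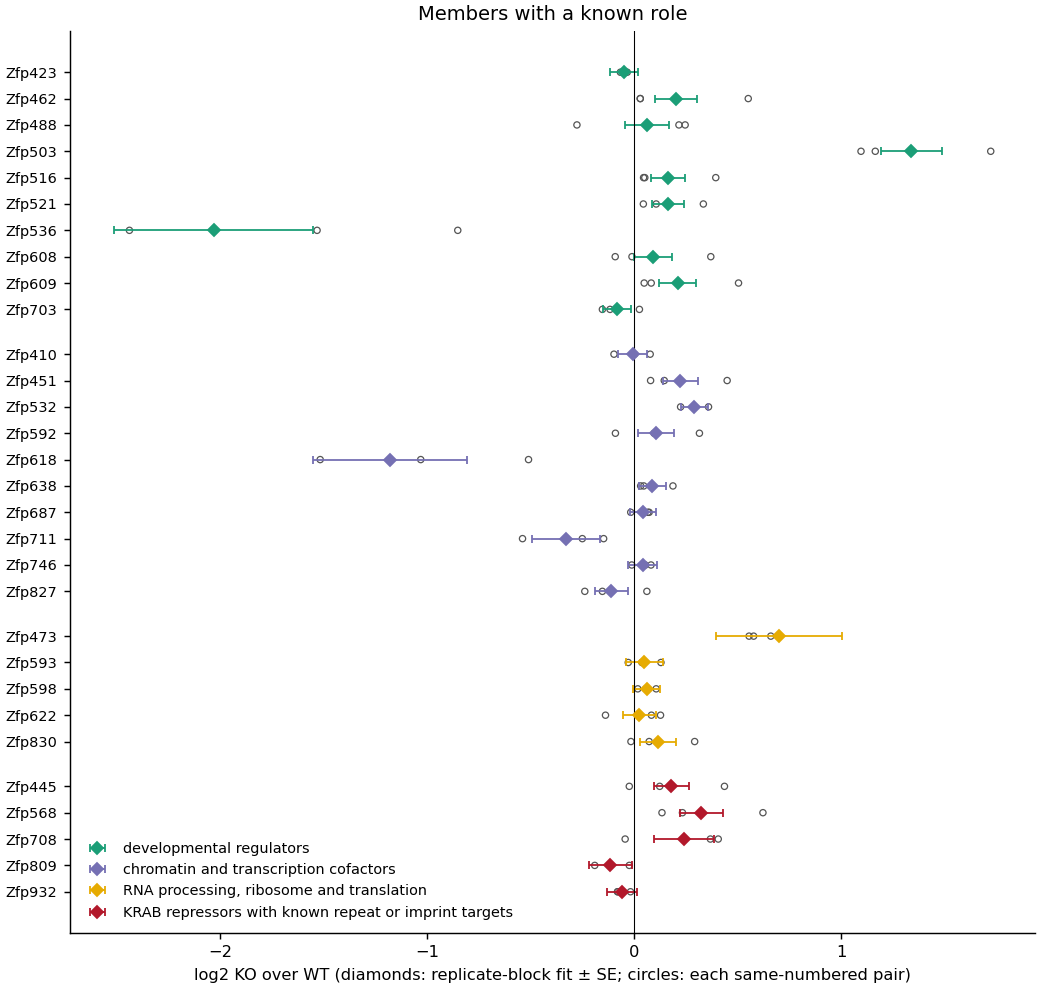
Log2 KO over WT of the 30 tested members of the 4 role lists: diamonds with bars are the blocked edgeR estimate and SE, and open circles the 3 same-numbered pairs of libraries. Zfp503 at 1.34 and Zfp536 at −2.03 lie farthest from 0, and for most of the others the circles lie close to 0 or on both sides of it.

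The members with the most RNA per length were not among those called with the block. Zfp428 led with 55.6 CPM per kb, followed by Zfp706, a regulator of stem cell self-renewal, and Zfp422 with 31.6 each, Zfp664 with 31.2 and Zfp740 with 31.1. Zfp422 had 110.6, 101.2 and 112.1 CPM in WT 1, 2 and 3 and 122.8, 123.7 and 116.8 CPM in KO 1, 2 and 3. Its groups did not overlap, but it did not pass (log2 fold change 0.17 ± 0.0672, blocked edgeR, adjusted p = 0.164). Zfp664 had 236.7 ± 21.9 and 252.2 ± 7.85 CPM. The log2 fold changes of Zfp428, Zfp706 and Zfp740 were −0.05 ± 0.0861, 0.03 ± 0.0608 and 0.10 ± 0.0605.

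More members differed by replicate number than by genotype. Between number 1 and numbers 2 and 3, with genotype in the model, edgeR called 77 of the 189 members, 35 higher and 42 lower in number 1. That is 40.7%, against a background of 57.6% of all genes tested (28.2% higher, 29.4% lower). KRAB members had 21 higher and 18 lower, and members without the box 14 higher and 24 lower. Cell type markers moved with number 1 as well: 5 of 7 neural stem cell markers were called lower and 1 higher, 2 of 5 tested neuronal markers lower and 1 higher, 3 of 4 astrocyte markers lower and 4 of 5 oligodendrocyte markers lower. Hes5, a Notch target, had 18.3 and 23.4 CPM in WT 1 and KO 1 and between 232.3 and 312.3 CPM in the other 4 libraries, and Gfap 5.33 and 3.70 CPM where the others had 63.3 to 159.1. The part of these markers in the members' differences was not tested. The largest falls in number 1 were those of Zfp963 (log2 difference −1.22 ± 0.171), Zfp949 (−1.10 ± 0.127) and Zfp423 (−1.08 ± 0.0659), with edgeR adjusted p of 0.000367, 0.000115 and 4.48e-06. Zfp949 had 2.91 CPM in WT 1 and 2.82 CPM in KO 1, and between 5.73 and 6.48 CPM in the other 4 libraries. Of the longest transcript of Zfp963, 40.9% is shared with Gm20422. The largest rises were those of Zfp536 (1.42 ± 0.424), Zfp493 (1.20 ± 0.181) and Zfp930 (0.94 ± 0.0972), with edgeR adjusted p of 0.0186, 0.000556 and 6.38e-05. Zfp930 had 14.5 CPM in WT 1 and 15.9 CPM in KO 1, and between 6.92 and 9.08 CPM in the others. For genotype, the blocked fit gave Zfp963 0.18, Zfp949 0.01, Zfp423 −0.05, Zfp493 −0.54 and Zfp930 0.20 on the log2 scale, and none of these 5 passed.

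**Figure D5:**
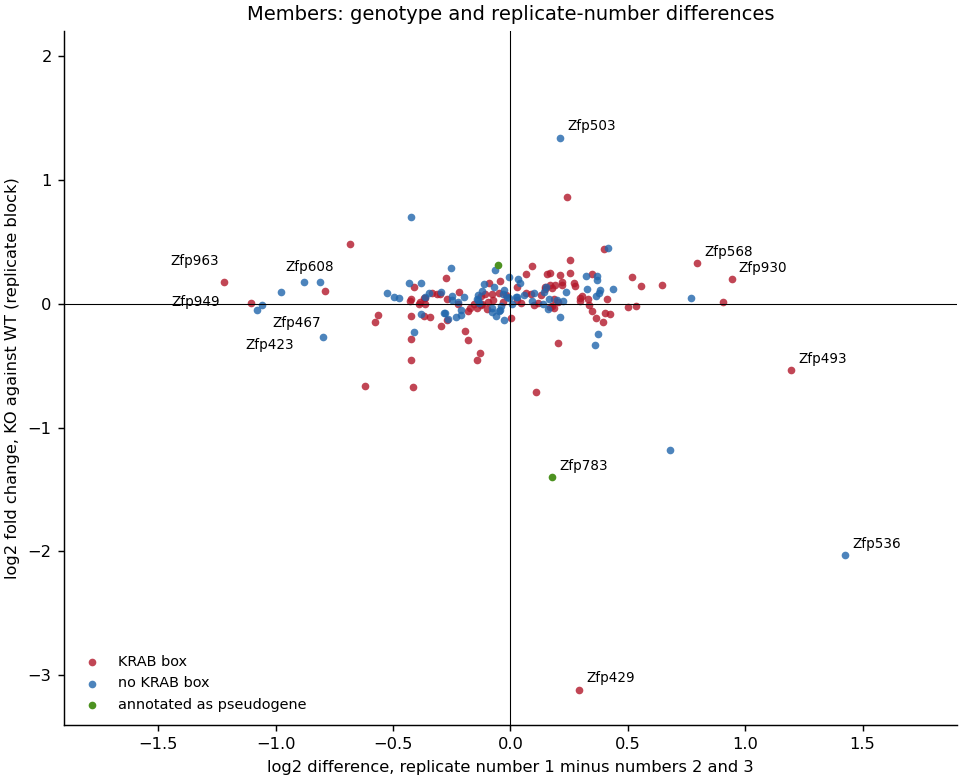
Each point is a tested member, with its log2 difference between replicate number 1 and numbers 2 and 3 across and its log2 fold change, KO against WT, in the blocked edgeR fit upward. Across, 51.9% of members lie within 0.25 of 0, and upward 85.2%; Zfp429, Zfp503 and Zfp783 stand out by genotype, Zfp423, Zfp949 and Zfp963 by number, and Zfp536 by both.

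In some rows of genes, the members called by replicate number shared a direction. The rows given were singled out from several, and whether they exceed the background was not tested. Others were mixed, such as a row on chromosome 17 (21383748 to 22867134) with 2 genes higher and 3 lower. Where 57.6% of all genes tested were called (29.4% lower), a row of 6 genes on chromosome 7 (4915217 to 5053723) had 83.3% called. None has a KRAB box, and 5 were lower in number 1: Zfp579, Zfp784, Zfp628, Zfp865 and Zfp580. Their row summed to 110.2 CPM in WT 1 and 118.2 CPM in KO 1, and to between 152.7 and 165.8 CPM in the other libraries. With genotype the sum did not separate, with 139.2 ± 25.2 CPM for WT and 147.2 ± 25.4 CPM for KO (SD, n = 3 each). In another row on the same chromosome (29816114 to 30090527), 3 of 5 genes (60%) were higher in number 1 and 0 lower: Zfp568, Zfp566 and Zfp420. The share called is near the 57.6% of all genes (28.2% higher). This second row summed to 65.0 CPM in WT 1 and 67.0 CPM in KO 1, and to between 45.7 and 53.3 CPM in the other libraries.

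Related gene families had few calls as well. Of the Zfp1 to Zfp399 genes, 125 were tested, with 2 called higher and 0 lower (1.6%) in the blocked edgeR fit, and a median log2 fold change of 0.08. Of the Zbtb, Zscan and Zkscan genes, 61 were tested, with 2 called higher and 1 lower (4.92%), and a median of 0.10. The same fit called 9.79% of all genes tested. The difference between these families and the members was not tested.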

How the data were processed

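RNA was sequenced from primary neural stem cells, 3 WT and 3 KO libraries, made per the labels' protocols from fragmented mRNA with random hexamer primers. The authors deposited raw whole-number counts per gene symbol, and these entered every test as deposited. Per the submitters' processing notes, FastQC, cutadapt, Trim Galore, Bowtie2 and RSEM were used with build mm10. No source used here gives their versions, the gene annotation, the strand setting or the rounding of RSEM estimates. Without the strand setting, overlapping and antisense genes cannot be told apart. Groups and replicate numbers came from the sample titles.

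Counts were analysed in R 4.3.3 with edgeR 4.0.16: filterByExpr by group, which kept 13683 genes, TMM scaling, a robust quasi-likelihood fit of all 6 libraries and a two-sided test, with Benjamini-Hochberg adjustment over all genes tested. Genes with an adjusted p under 0.05 are called. The main fit of KO against WT had no block. Same-numbered libraries deviated together from their group means (correlations of 0.914, 0.71 and 0.664 for numbers 1, 2 and 3, over the limit of 0.1). The fit with replicate number as a block is therefore printed beside the main fit. The pairing comes from these correlations. WT 2 with KO 3 (0.776) and WT 3 with KO 2 (0.69) were as high, so numbers 2 and 3 are not told apart. A shift shared by the libraries numbered 1 moves numbers 2 and 3 of both groups to the same side of their group means. The correlations for numbers 2 and 3 thus cannot show pairing. No label says that libraries came from separate embryos or cultures, so a p-value reflects the spread between these libraries alone, and that spread may be technical. Tested on simulated data, at 13683 genes, KO against WT recovered 0 of 100 changes of 1.5-fold and 0 of 100 of 2-fold without the block, and 85 and 94 of 100 with it; of the 13483 unchanged genes, 0 were called without the block and 13 with it, 6.8% of its 192 calls. The simulation set gene means per replicate number and took its spread from the blocked fit. Pairing was thus built in, so the simulation cannot show whether the block suits the real libraries. DESeq2 1.42.0, upper-quartile scaling, no filter, single libraries left out, numbers 2 and 3 alone, number 1 as the block and KO 2 with KO 3 summed were alternatives.

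Positions, exon lengths and transcript sequences came from GENCODE vM21 (GRCm38, which mm10 names, 1-based). A KRAB box was counted where a translated coding transcript matched a consensus of 41 residues at 18 or more; C2H2 fingers were counted by their spacing pattern. The longest transcript of a member was called shared where a transcript of another gene matched it at 98% identity over at least 100 bases on either strand. Rows of genes are 5 or more members on 1 chromosome with starts under 500 kb apart. RefSeq promoter windows were found for 167 members. The text names Phf2, every called member, the 5 with the highest CPM per kb, the 3 with the largest number 1 differences in each direction, the 4 role lists and the called genes of the corepressor list. Members and lists were chosen with earlier results of these data known. 1 further gene that the symbol rule would match is not reported here.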

Additional observations from a re-analysis of the deposited data

How the results depend on the processing

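The number of called members, 0 in edgeR without a block, depended on how replicate number was treated. It was 9 with the replicate block, 2 with DESeq2 and 8 with DESeq2 and the block. It was 8 with upper-quartile scaling and the block (9.57% of all genes called), 10 without a filter and with the block (9.5%), and 9 where the block set number 1 against the rest (10.6%). Numbers 2 and 3 alone gave 3, and so did summing KO 2 with KO 3, also 3. Leaving out single libraries without the block gave 0 to 0, with 3 to 11 members at an unadjusted p under 0.05. With all 6 libraries it was 6 members, where 5.81% of all genes passed (edgeR). The share over all genes in the fits with a library left out is not given here, so their counts have no background. The block without both libraries of 1 replicate number, an alternative chosen after seeing the data, gave 4, 9 and 8 without numbers 1, 2 and 3 (7.53%, 9.07% and 10.6% of all genes). Pairing by replicate number turned no direction among the named members. The median log2 fold change of the members was above 0 in every alternative run, from 0.01 to 0.07. Members without overlap between the groups numbered 21, where 11.2% of all genes tested had none. In numbers 2 and 3 alone they numbered 90 (66 above, 24 below). There 2 libraries a group are compared, and 26.9% and 25.7% of all genes lay above and below. Members differing by number 1 were 71 to 83 over the fits. The main fit had 77, where 57.6% of all genes differed.

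Directions turned only in named members that no fit of KO against WT called. Over the fits that left out 1 library, the log2 fold change ranged from −0.034 to 0.031 for Zfp410, −0.31 to 0.24 for Zfp423, −0.13 to 0.041 for Zfp428, −0.051 to 0.20 for Zfp488, −0.99 to 0.045 for Zfp493, −0.27 to 0.35 for Zfp593 and −0.080 to 0.20 for Zfp598. It ranged from −0.10 to 0.41 for Zfp608, −0.053 to 0.082 for Zfp622, −0.037 to 0.25 for Zfp638, −0.003 to 0.10 for Zfp687, −0.22 to 0.004 for Zfp703, −0.063 to 0.11 for Zfp706 and −0.024 to 0.10 for Zfp746. For Zfp809 it was −0.26 to 0.046, for Zfp830 −0.003 to 0.27, for Zfp930 −0.18 to 0.61, for Zfp932 −0.19 to 0.070, for Zfp949 −0.25 to 0.31 and for Zfp963 −0.16 to 0.52. Zfp410 was 0.003 in both DESeq2 fits. In numbers 2 and 3 alone, Zfp488 was −0.020, Zfp410 0.040 and Zfp622 −0.012. Upper-quartile scaling gave Zfp706 −0.003, Zfp949 −0.019 and Zfp622 −0.010, and with the block −0.004, −0.021 and −0.005. With KO 2 and KO 3 summed, Zfp949 was −0.000. The block without number 1 gave Zfp488 −0.016, Zfp410 0.040 and Zfp622 −0.005. Without number 2 it gave Zfp949 −0.036 and Zfp622 −0.023, and without number 3 Zfp428 0.070, Zfp488 −0.033 and Zfp608 −0.050. The cause was not tested. Depth limits the 16 untested members and those below 2 CPM, such as Zfp536, most.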

Other observations

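Zfp704 was called in 1 of the fits alone. It had 6369, 4826 and 3615 counts in WT 1, 2 and 3 and 7097, 5541 and 4816 counts in KO 1, 2 and 3, or 111.6 ± 31.7 and 148.8 ± 21.6 CPM, with overlap between the groups. DESeq2 with the block gave a log2 fold change of 0.46 ± 0.121 and an adjusted p of 0.00347, and edgeR with the block 0.45 ± 0.13 and 0.0703. It was singled out after its values were seen.

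Some members had KO and WT libraries that did not overlap while edgeR with the block did not call them. In all, KO lay wholly above WT for 13 of the 189 tested members and wholly below for 8. Of all genes tested, 4.49% lay above and 6.71% below. Those above WT included Zfp871, with 119.5 ± 28.8 CPM in WT and 144.8 ± 6.11 CPM in KO (overlapping under upper-quartile scaling), and Zfp763, with 14.3 ± 1.94 and 16.8 ± 0.0792 CPM, both KRAB genes of 1 row on chromosome 17 (32765496 to 33110705). The pseudogene Zfp939 had 2.18 ± 0.0918 and 2.72 ± 0.443 CPM. Those below WT included the KRAB genes Zfp951, with 3.72 ± 0.474 and 2.81 ± 0.336 CPM, and Zfp791, with 1.09 ± 0.166 and 0.683 ± 0.27 CPM, and Zfp651, with 43.1 ± 1.21 and 39.4 ± 2.04 CPM.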
